A study of Arabidopsis thaliana with 6 samples.

Results

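The DOG1 family of Arabidopsis thaliana was followed in fresh seeds of wild-type Columbia-0 and of the asf1a1b mutant. Its 5 members, DOG1 (AT5G45830), DOGL1 (AT4G18660), DOGL2 (AT4G18680), DOGL3 (AT4G18690) and DOGL4 (AT4G18650), were taken by identifier from a table of 32833 genes, and all 5 were high enough to be tested. The annotation gives the name DOG1 to AT5G45830 and, in its note on that gene, the DOGL1 to DOGL4 names to the other 4. Each genotype had 3 RNA-seq libraries. The asf1a1b plants carry lesions in both ASF1A and ASF1B, the genes for the histone chaperone ASF1, and the labels name no alleles. Seeds of both genotypes came from soil-grown plants kept at 21 °C in long days and were harvested fresh, within 24 hours. The labels also mention 4 days of stratification at 4 °C, and it is unclear whether that step preceded the RNA extraction. They do not say whether replicates were separate plants or harvests, so the tests measure the spread between these libraries, which may be technical.

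DOG1 (DELAY OF GERMINATION 1) is a central gene of seed dormancy. Its protein accumulates during seed maturation, binds the phosphatases AHG1 and AHG3, which damp abscisic acid (ABA) signalling, and in this way favours dormancy. DOG1 RNA is spliced and polyadenylated in several ways, and an antisense RNA is known to arise from the 3′ part of the gene. The DOGL genes encode related proteins of which less is known. DOGL4 has been described as ABA-responsive, as a gene that promotes storage protein expression and, in the annotation, as imprinted with expression from the maternal allele. The part of the protein shared by this family is also present in the TGA transcription factors.

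In the mutant seeds DOG1 was higher, and DOGL1 and DOGL2 were lower. DOG1 increased 3.18 times, whereas DOGL1 fell to a level 3.46 times lower and DOGL2 to one 1.5 times lower. DOGL3 and DOGL4 had mutant means 4.90 and 2.04 times below those of Columbia-0, but their libraries spread widely, and they did not pass the test. Both passed in a model with the replicate number as a term and in some fits that left out a library. Values are the deposited rescaled TPM (TPM, a read abundance per length of gene, rescaled across libraries in a way left unnamed).

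The libraries held 42771364 to 56017339 reads, recovered from the deposited values. ASF1A and ASF1B were 7.18 and 11.6 times lower in asf1a1b than in Columbia-0, so the libraries matched their genotype labels. Seed transcripts dominated, with the 5 embryo markers summing to 56238 to 83214 in Columbia-0 and 52984 to 68916 in asf1a1b. Of the endosperm markers, EPR1 was abundant, with library totals for the list of 6904 to 10323 and 9229 to 11132, while ZOU and ALE1, genes of the young endosperm, were near 0. The summed values of 4 leaf markers were 17.98 to 27.3 in Columbia-0 and 57.6 to 109 in asf1a1b, and those of 5 seed coat markers were 0.619 to 2.09 and 5.03 to 7.39. The leaf and seed coat sums differed between the genotypes without overlap, and their part in the results below was not tested. The leaf difference came mostly from RBCS1A (means of 16.8 and 71.0) and CAB1 (0.436 and 11.7). LHCB2.1 was also higher at a low level, but RCA did not pass (5.42 and 6.07, limma adjusted p = 0.636). PRX36 (0.819 and 5.35) made up most of the seed coat sum. TT10, MUM2 and STK were also higher at low levels, and BAN was nearly even (0.0877 and 0.0920). In bulk seed RNA a smaller number of cells of a type and less RNA per cell cannot be told apart. Replicate 1 of each genotype stood apart from replicates 2 and 3 on the second principal component, which held 18.9% of the variance.

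DOG1 lies on chromosome 5, on the minus strand (18589418 to 18591506, build TAIR10.1), with up to 3 exons and 6 annotated transcripts. The DOGL genes form a cluster on chromosome 4 that spans 19835 bases, in the order DOGL4, DOGL1, DOGL2 and DOGL3. DOGL4 (10263969 to 10265439, minus strand) has 2 exons. DOGL1 (10273480 to 10274872), DOGL2 (10281033 to 10281740) and DOGL3 (10282762 to 10283803), all on the plus strand, have 1 exon each. No annotated gene overlaps any of the 5. The DOGL2 model is partial and equals its coding sequence of 708 bases, so its per-length value rests on coding length alone, while the models of the other members include untranslated parts. The files hold 1 value for all transcripts of DOG1, so its splice forms were not separated.

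Of the 10 pairs of coding sequences, DOGL2 and DOGL3 were by far the most alike, with 82.9% identity over 708 aligned bases. The other 9 pairs had 54.4% to 66.8% identity. The longest run of identical bases shared by any 2 of the 5 genes was 35, in DOGL2 and DOGL3. It is shown in capitals, with 20 bases on either side in lower case, because it is where reads of these neighbours could most easily be confused. The sequences are from the RefSeq copy of TAIR10.1.
DOGL2 (chr4:10281556-10281630, plus strand): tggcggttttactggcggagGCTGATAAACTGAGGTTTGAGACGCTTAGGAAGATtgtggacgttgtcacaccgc
DOGL3 (chr4:10283395-10283469, plus strand): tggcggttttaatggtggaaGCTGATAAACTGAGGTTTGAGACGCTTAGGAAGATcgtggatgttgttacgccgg
The flanks of this run differ at several places, and none of the runs of 50 bases in the 5 genes occurred a second time in the nuclear genome. How the counting treated reads with several matches is not known from these sources.

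DOG1 had 9.75, 11.5 and 12.3 rescaled TPM in Columbia-0 replicates 1, 2 and 3, and 33.8, 32.4 and 40.4 in the same-numbered asf1a1b libraries. The genotypes did not overlap, and the lowest mutant library exceeded the highest wild-type library by a wide margin. These values came from 572, 654 and 758 recovered reads in Columbia-0 and from 1737, 2366 and 2515 in asf1a1b. On the log2 scale DOG1 rose by 1.59 ± 0.13 (SE; adjusted p by limma 0.000827), and within same-numbered pairs the mutant was 3.47, 2.83 and 3.28 times higher. DOG1 passed the test under all 15 alternative settings, with log2 fold changes of 1.32 to 1.67 and limma adjusted p of 3.04e-05 to 0.0083. Whether antisense reads are part of these values cannot be told, since no source used here gives the strand setting of the counting.

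**Figure D1:**
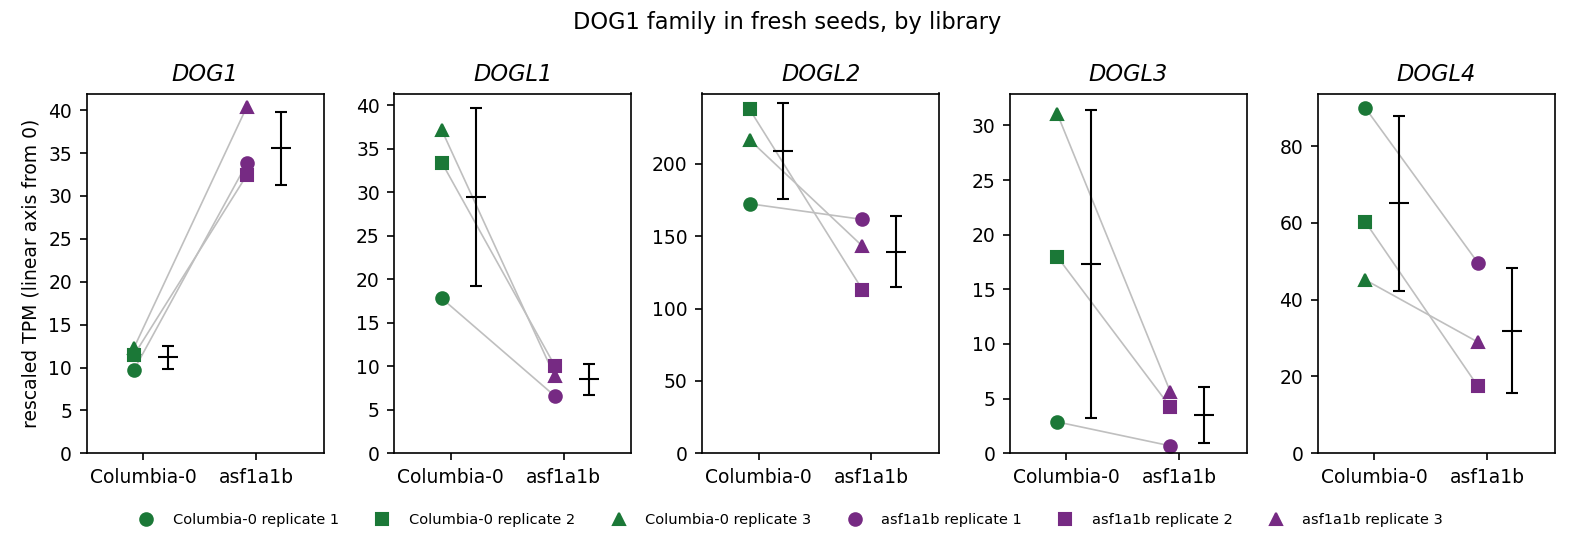
Rescaled TPM of the 5 members (1 panel each, linear axes from 0) in Columbia-0 (green) and asf1a1b (purple), with circles, squares and triangles for replicates 1, 2 and 3, grey lines joining libraries of the same number, and bars for the mean and SD (n = 3). The lines rise for DOG1, from 9.75 to 12.3 up to 32.4 to 40.4, and descend for the 4 DOGL genes, with replicate 1 lowest for DOGL3 and highest for DOGL4 in both genotypes.

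DOGL4, the member at the left end of the cluster, had 90.0, 60.3 and 45.2 rescaled TPM in Columbia-0 replicates 1, 2 and 3 and 49.6, 17.4 and 28.9 in asf1a1b. The groups overlapped, because asf1a1b replicate 1 exceeded Columbia-0 replicate 3. Its means were 65.2 ± 22.8 and 32.0 ± 16.3 (SD, n = 3). The log2 fold change of -1.07 ± 0.38 did not pass (limma adjusted p = 0.0678). Within same-numbered pairs the mutant was 1.82, 3.47 and 1.56 times lower, although no label names a batch shared by libraries of the same number. With the replicate number as a block, a term of the same model, DOGL4 passed (limma adjusted p = 0.0116, log2 fold change -1.07 ± 0.21), as it did without asf1a1b replicate 1 (0.0165). Over all 15 alternatives its limma adjusted p ran from 0.0019 to 0.186. EPR1, the abundant endosperm marker, did not pass, with 9020 ± 1849 in Columbia-0 and 9936 ± 1041 in asf1a1b (SD, n = 3; limma adjusted p = 0.706).

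DOGL1 had 17.8, 33.4 and 37.1 rescaled TPM in Columbia-0 replicates 1, 2 and 3, against 6.59, 10.08 and 8.87 in asf1a1b. Each mutant library was below all wild-type libraries. The means were 29.4 ± 10.2 and 8.51 ± 1.77 (SD, n = 3), and on the log2 scale DOGL1 changed by -1.63 ± 0.28 (SE; adjusted p by limma 0.0060). Pair by pair the mutant was 2.70, 3.31 and 4.18 times lower. DOGL1 passed under all 15 alternatives, with a limma adjusted p of at most 0.032.

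DOGL2 was the most abundant member, with 172, 238 and 217 rescaled TPM in Columbia-0 replicates 1, 2 and 3 and 162, 113 and 143 in asf1a1b. The groups did not overlap, but Columbia-0 replicate 1 and asf1a1b replicate 1 lay close together. The means were 209 ± 33.3 and 139 ± 24.5 (SD, n = 3), and the log2 fold change of -0.58 ± 0.18 passed narrowly (limma adjusted p = 0.0431). The mutant was 1.07, 2.1 and 1.51 times lower in pairs 1, 2 and 3. The call ended when any library but the 2 of replicate 1 was left out (limma adjusted p of 0.148 and 0.103 without Columbia-0 replicates 2 and 3, and of 0.129 and 0.115 without asf1a1b replicates 2 and 3), with a mean of at least 5 required (0.0517) and with no filter on low values (0.0658). The lowest limma adjusted p over the alternatives was 0.00165.

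DOGL3 varied most between replicates. It had 2.87, 17.96 and 31.0 rescaled TPM in Columbia-0 replicates 1, 2 and 3 and 0.681, 4.25 and 5.65 in asf1a1b, from 101, 615 and 1147 reads and from 21, 186 and 211 reads. The groups overlapped only through Columbia-0 replicate 1, which fell below asf1a1b replicates 2 and 3. The means of 17.3 ± 14.1 and 3.52 ± 2.56 (SD, n = 3) gave a log2 fold change of -1.77 ± 0.81 that did not pass (limma adjusted p = 0.131). Within same-numbered pairs, however, the ratios were close to each other, with the mutant 4.21, 4.23 and 5.50 times lower. That pairing rests on the numbers in the titles, and across all genes only number 1 matched best with its own number. With the replicate block DOGL3 passed (limma adjusted p = 0.0028, log2 fold change -1.77 ± 0.21), and it also passed without Columbia-0 replicate 1 (limma adjusted p = 0.0133). Over all 15 alternatives the limma adjusted p ran from 0.000102 to 0.306. The ratio of means was 4.90, and 2.95 without Columbia-0 replicate 3.

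**Figure D2:**
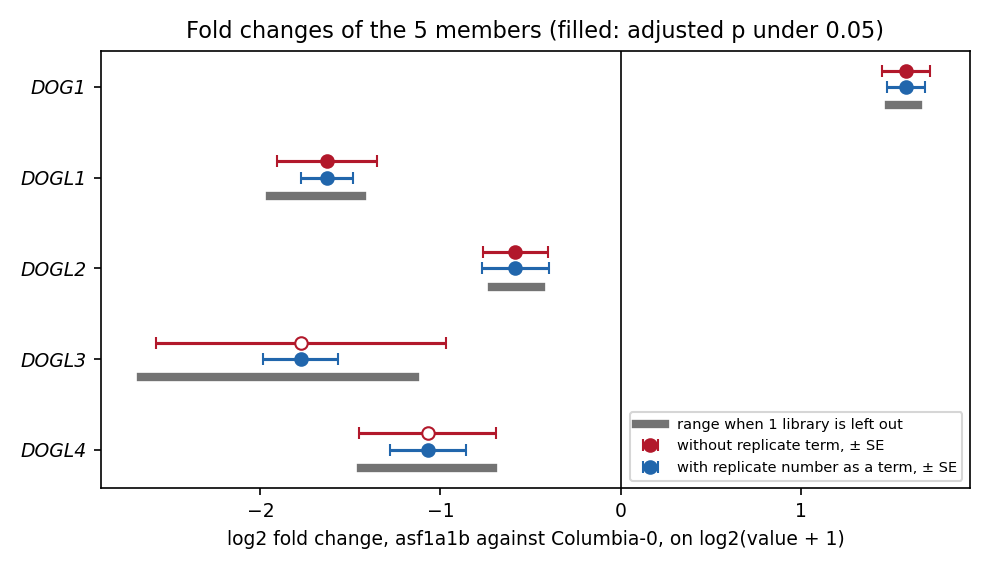
Log2 fold change of each member, asf1a1b against Columbia-0, on the log2(value + 1) scale, from the model without the replicate number (red, ± SE) and with it (blue, ± SE), and the range when 1 library is left out (grey bars). Filled symbols passed an adjusted p of 0.05. The estimates are the same in both models, while the SE of DOGL3 went from 0.81 to 0.21 and that of DOGL4 from 0.38 to 0.21.

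Over the family, 3 of the 5 members passed the test, 1 higher and 2 lower in asf1a1b. Among all 14663 genes tested, 30.6% passed, 16.1% higher and 14.5% lower, so calls are common in this comparison. With the replicate block all 5 members passed, 4 of them lower, against 39.7% of all genes (18.8% lower). Groups without overlap were found for 3 of the 5 members and for 47.5% of all genes. Each of the 4 DOGL genes was lower in the mutant in 3 of 3 same-numbered pairs, as were 33.1% of all genes. The median log2 fold change was -1.07 over the 5 members and 0.01 over all genes tested. By size, 98.2% of tested genes had a lower log2 fold change than DOG1, and only 0.716% and 0.518% had a lower one than DOGL1 and DOGL3.

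The authors' deposited table lists DOG1 as up (log2 fold change 1.65, adjusted p = 1.76e-19) and DOGL1 as down (log2 fold change -1.81, adjusted p = 6.1e-08). That table, the authors' deposited table, marks 8.76% of its 15257 genes. In the authors' deposited table DOGL3 is also down (log2 fold change -2.31, adjusted p = 0.0884). The authors' deposited table does not mark DOGL4 (log2 fold change -1.05, adjusted p = 0.0147) or DOGL2 (-0.61, adjusted p = 0.00724) as changed. Every gene marked in the authors' deposited table differed by 1.5 or more on the log2 scale at an adjusted p no higher than 0.0957, and DOGL2 and DOGL4 fall short of that size. No source used here names the test behind it.

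On the per-length scale the order of levels in Columbia-0 was DOGL2, DOGL4, DOGL1, DOGL3 and DOG1. The ranges of DOGL2, DOGL4 and DOGL1 did not overlap, whereas DOGL3 overlapped both DOGL1 and DOG1. In asf1a1b DOG1 moved up to the second place by mean, ahead of DOGL4, although its range lay within that of DOGL4. DOGL1 and DOGL3 came last there, with ranges that did not overlap. DOG1 made up 3.33%, 3.18% and 3.6% of the summed value of the 5 members in Columbia-0 replicates 1, 2 and 3, and 13.4%, 18.3% and 17.8% in asf1a1b. The share of DOGL2 was 58.9% to 65.9% in Columbia-0 and 63.1% to 64.1% in asf1a1b. The sum itself was 293, 361 and 342 rescaled TPM in Columbia-0 and 252, 177 and 227 in asf1a1b, so it was lower in each mutant library. Among the genes tested, DOG1 had a higher mean than 53.2% in Columbia-0 and than 81.0% in asf1a1b, while the figures for DOGL1 were 77.1% and 46.6%.

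**Figure D3:**
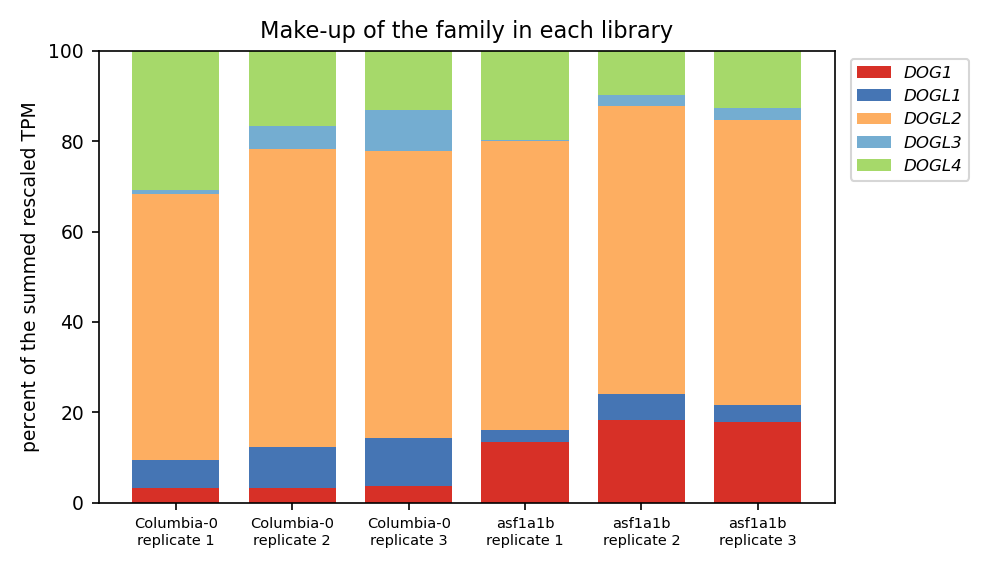
Share of each member, in percent, in the summed rescaled TPM of the 5 members, with 1 bar per library. DOG1 takes 3.18% to 3.6% in Columbia-0 and 13.4% to 18.3% in asf1a1b, and DOGL2 is the largest part of each bar.

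The bases before the annotated start were examined as a description, and their part in the changes of the members was not tested. The 250 bases upstream are shown for the 4 members with a full gene model, 5′ to 3′ on the strand of the gene, from the RefSeq copy of TAIR10.1. Capitals mark matches on either strand to the RY element (CATGCA), bound by seed maturation factors of the B3 type, and to the core of the ABA response element (ACGTG). The G-box (CACGTG), which contains that core, was also searched.
DOGL1 (chr4:10273230-10273479, plus strand): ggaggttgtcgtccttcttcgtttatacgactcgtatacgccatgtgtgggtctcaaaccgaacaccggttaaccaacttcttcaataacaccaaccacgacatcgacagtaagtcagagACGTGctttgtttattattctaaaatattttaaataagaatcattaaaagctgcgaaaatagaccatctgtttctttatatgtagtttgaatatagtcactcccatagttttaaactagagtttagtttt
DOGL3 (chr4:10282512-10282761, plus strand): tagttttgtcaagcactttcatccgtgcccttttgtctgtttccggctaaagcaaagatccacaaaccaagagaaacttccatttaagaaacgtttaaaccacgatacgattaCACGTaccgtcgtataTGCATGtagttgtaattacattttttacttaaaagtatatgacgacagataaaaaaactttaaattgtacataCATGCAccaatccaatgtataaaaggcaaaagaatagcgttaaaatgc
DOGL4 (chr4:10265440-10265689, minus strand): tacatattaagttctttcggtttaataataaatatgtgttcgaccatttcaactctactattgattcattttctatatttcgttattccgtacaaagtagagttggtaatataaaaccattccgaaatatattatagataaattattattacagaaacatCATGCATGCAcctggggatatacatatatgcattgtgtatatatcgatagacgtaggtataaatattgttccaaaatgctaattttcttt
DOG1 (chr5:18591507-18591756, minus strand): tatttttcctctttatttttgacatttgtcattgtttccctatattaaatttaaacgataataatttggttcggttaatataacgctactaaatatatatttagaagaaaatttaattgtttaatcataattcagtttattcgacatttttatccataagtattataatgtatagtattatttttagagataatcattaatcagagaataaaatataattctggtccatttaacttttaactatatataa
Positions count from the annotated start, with -1 for the last base shown, and name the leftmost base of a match. DOGL3 had 2 RY matches, at -121 and -48, and 1 ABA response core, at -137. DOGL4 had 3 overlapping RY matches in 1 stretch, at -90, -88 and -86, and no ABA response core. DOGL1 had 1 ABA response core, at -130, and no RY match. DOG1 had neither in this window, whose GC content was 19.6%, and no member had a G-box there. The window before DOGL2 is not shown, since it starts at the coding sequence and can hold untranslated bases. It contained 2 overlapping RY matches and 1 ABA response core. Over 20983 such windows of protein-coding genes with full models, 8.58% held an RY match, 24.1% an ABA response core, 7.28% a G-box and 2.39% both of the first 2. A match is a string of letters and not a site of binding.

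Genes next to the family did not all share its direction. At the DOGL cluster, the gene between DOGL1 and DOGL2 is AT4G18670, which had 5.43, 1.35 and 0.973 rescaled TPM in Columbia-0 replicates 1, 2 and 3 and 4.36, 3.43 and 3.43 in asf1a1b. It did not pass (log2 fold change 0.61 ± 0.41, limma adjusted p = 0.288), but was higher in the mutant without Columbia-0 replicate 1 (limma adjusted p = 0.0036), in contrast to the DOGL genes on either side. AT4G06835, a long noncoding RNA between DOGL4 and DOGL1, had means of 18.7 and 15.1 and did not pass (limma adjusted p = 0.391). To the left, PYL13, a member of the ABA receptor family, had means of 8.78 and 14.2 (limma adjusted p = 0.175). MRH1, the gene next to DOGL4, was too low to be tested, with 126 reads in Columbia-0 and 48 in asf1a1b. Its means were 0.412 and 0.150, lower in the mutant without overlap, the direction of the DOGL genes. AT4G18630 was at 0 in every library. To the right of DOGL3, AT4G18692 was listed at 0 in every library, the protein kinase gene CIPK12 had means of 66.5 and 81.6 (limma adjusted p = 0.0535, and 0.0473 with the replicate block), and BIN2, a kinase of brassinosteroid signalling, fell by 0.32 on the log2 scale (limma adjusted p = 0.0455). The BIN2 call ended whichever library was left out (limma adjusted p up to 0.160).

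Around DOG1 the genes CIPK19, CIPK20 and AT5G45850 were nearly silent. CIPK20, which lies to the left on the same strand, had 5 reads in Columbia-0 and 2 in asf1a1b over all libraries, and CIPK19 had 3 and 20. MEE62, the third gene to the left, had means of 7.04 and 5.09 and did not pass without the replicate block (limma adjusted p = 0.447), though it did with it (0.0491). To the right, AT5G45840 had 244 reads in Columbia-0 and 50 in the mutant, below the level tested, and AT5G45850 had 1 and 0. PYL11, of the ABA receptor family like PYL13, had 8.08, 54.9 and 45.7 rescaled TPM in Columbia-0 replicates 1, 2 and 3 and 11.1, 6.26 and 5.84 in asf1a1b. It did not pass over all libraries (log2 fold change -1.77 ± 0.64, limma adjusted p = 0.0725) and was lower in the mutant without Columbia-0 replicate 1 (limma adjusted p = 0.00146). The authors' deposited table lists PYL11 (log2 fold change -2.25, adjusted p = 0.0143) and AT5G45840 (log2 fold change -2.42, adjusted p = 0.000701) as down. Of the tested genes at this locus, MEE62, DOG1 and PYL11, DOG1 alone was called higher in the mutant.

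**Figure D4:**
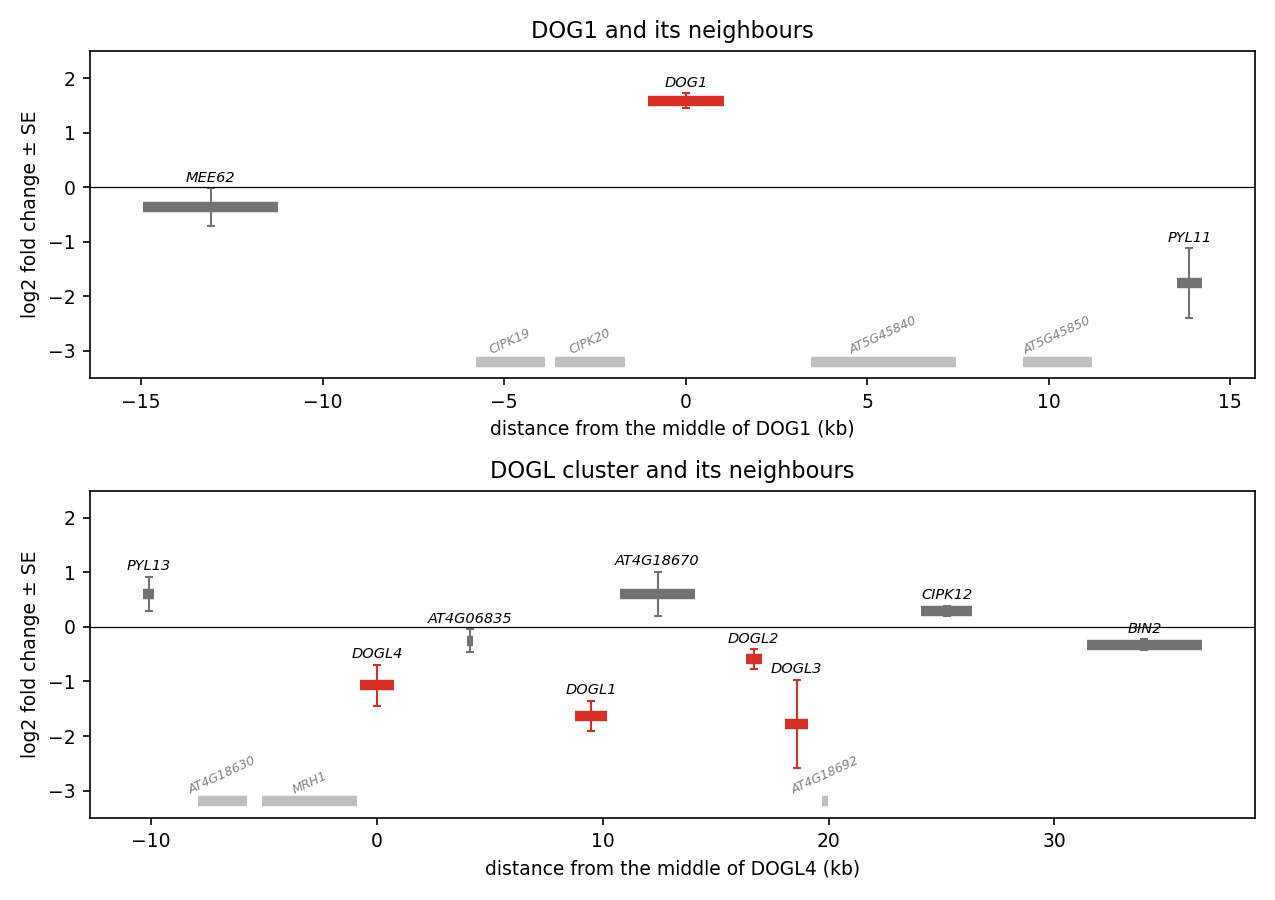
Log2 fold change (asf1a1b against Columbia-0, ± SE) of the family members (red) and neighbouring genes (dark grey), drawn to scale by distance in kb from the middle of DOG1 (top) and of DOGL4 (bottom). Genes too low to be tested are light grey bars at the bottom edge, with no value. DOG1 stands at 1.59 and the 4 DOGL genes between -0.58 and -1.77, with AT4G18670 at 0.61 among them.

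A list of 14 tested genes held the DOG1 partners AHG1 and AHG3 and other genes of ABA signalling and dormancy. Of these, 0 rose, 3 fell and 11 did not pass, with a median log2 fold change of -0.02. The 3 calls are 21.4% of the list, against 30.6% of all genes tested, and 7 of the 14 passed with the replicate block, where 39.7% of all genes did. Over all 15 alternatives 1 to 9 of them passed. AHG1, the phosphatase that DOG1 binds, had 502 ± 94.5 rescaled TPM in Columbia-0 and 514 ± 53.4 in asf1a1b (SD, n = 3; limma adjusted p = 0.864). AHG3, its other partner, had 55.8 ± 17.9 and 54.0 ± 10.9, and RDO5, a phosphatase-like dormancy protein, 104 ± 34.8 and 100.5 ± 28.0 (SD, n = 3), and neither passed. The 3 that fell were ABI4, an ABA response factor, 2.51 times lower in the mutant (limma adjusted p = 0.00457), and the phosphatase genes ABI2 and HAB2, 1.33 and 1.30 times lower (limma adjusted p = 0.0412 and 0.0266). ABI2 lost its call whichever library was left out, and HAB2 did so for replicates 2 and 3 of either genotype (highest limma adjusted p 0.118 and 0.106).

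Among transcription factors known to act on DOG1, 3 of the 10 tested rose, 0 fell and 7 did not pass. The calls are 30% of those tested, against 30.6% of all genes tested, and the median log2 fold change was 0.32. DPBF2 (bZIP67), which binds the DOG1 promoter, had 0.449, 0.480 and 0.349 rescaled TPM in Columbia-0 replicates 1, 2 and 3 and 2.15, 1.97 and 1.93 in asf1a1b, a rise of 4.73 times (limma adjusted p = 0.00206). The libraries of DPBF2 were tightly grouped within each genotype. Its mean of 1.22 over the 6 libraries reached the level tested only through the mutant, since its Columbia-0 mean was 0.426. L1L, a subunit of the NF-Y complex related to LEC1, rose 2.80 times, and EEL, a bZIP factor of seed maturation, 1.72 times (limma adjusted p = 0.00486 and 0.00647). FUS3, a B3 factor, did not pass, with 10.6 ± 2.23 and 12.6 ± 2.13 (SD, n = 3; limma adjusted p = 0.354). LEC1, LEC2 and WRKY36 were below the level tested.

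Of 15 chromatin and elongation factors known to act on DOG1 and tested, 0 rose, 1 fell and 14 did not pass, with a median log2 fold change of -0.08. The 1 call is 6.67% of those tested, against 30.6% of all genes tested. With the replicate block 2 passed, and over all 15 alternatives 0 to 4. The 1 that fell was LHP1, a Polycomb-associated reader of methylated histone H3, which had 24.98 ± 0.935 in Columbia-0 and 13.4 ± 3.83 in asf1a1b (SD, n = 3; adjusted p by limma 0.0111). Its call ended when asf1a1b replicate 3 was left out (0.0562). HUB1, a ligase for histone H2B ubiquitin, and TFIIS, an elongation factor, were 1.34 and 1.23 times lower in the mutant mean without passing (limma adjusted p = 0.0844 and 0.0899). CLF, KYP, SUVH5 and LDL2 were below the level tested. Of these, CLF had 0.221 ± 0.0711 in Columbia-0 and 0.687 ± 0.109 in asf1a1b (SD, n = 3), with no test here. KYP had means of 0.161 and 0.587, and SUVH5 of 0.0557 and 0.290, from 19 and 105 reads. CLF, KYP and SUVH5 were thus higher in the mutant without overlap, while LDL2 overlapped (0.220 and 0.186). The authors' deposited table lists CLF (log2 fold change 1.62, adjusted p = 0.000325) and KYP, a histone H3 methyltransferase (log2 fold change 1.85, adjusted p = 0.00129), as up.

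Of 9 factors of RNA 3′ end formation and splicing tested, 1 rose, 1 fell and 7 did not pass. The calls are 22.2% of those tested, against 30.6% of all genes tested, and the median log2 fold change was 0.01. CPSF100, a subunit of the cleavage and polyadenylation complex, had 6.22, 4.34 and 4.05 rescaled TPM in Columbia-0 replicates 1, 2 and 3 and 14.2, 9.37 and 11.3 in asf1a1b, 2.38 times higher (limma adjusted p = 0.00677). PCFS4, also of that machinery, was 1.45 times lower (limma adjusted p = 0.0386), but leaving out any library other than asf1a1b replicate 1 ended that call (limma adjusted p of 0.0525 to 0.142).

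The TGA factors, which share a protein domain with DOG1, moved in both directions. Of 9 tested, 1 rose, 3 fell and 5 did not pass, with a median log2 fold change of -0.18. The calls are 44.4% of those tested, against 30.6% of all genes tested. TGA9 rose 1.78 times (limma adjusted p = 0.00506), while TGA4, TGA3 and TGA1 were 1.87, 1.43 and 1.31 times lower (limma adjusted p = 0.0114, 0.02 and 0.0272). The call of TGA9 held whichever library was left out. TGA4 lost its call without Columbia-0 replicate 2 or asf1a1b replicate 3, and TGA3 and TGA1 theirs when replicate 2 or 3 of either genotype was left out (highest limma adjusted p 0.0569, 0.0902 and 0.120).

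Storage protein genes, which DOGL4 has been reported to promote, changed in both directions, and their link to DOGL4 was not tested. Of 8 tested, 3 rose, 1 fell and 4 did not pass, with a median log2 fold change of 0.48. The calls are 50% of those tested, against 30.6% of all genes tested. The 2S albumin genes SESA1, SESA2 and SESA4 were 4.89, 5.34 and 3.33 times higher in the mutant, and the cruciferin gene CRU2 was 3.74 times lower. The SESA2 call ended when asf1a1b replicate 3 was left out (adjusted p by limma 0.0623), and its ratio was 12.4 without Columbia-0 replicate 1. The 2S albumin genes are a family of related copies, and whether reads were shared between them was not tested. Over the 6 lists together 17 of 65 tested genes passed, 26.2% against 30.6% of all genes tested, and 11 and 9 passed without Columbia-0 replicate 2 and without asf1a1b replicate 3.

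**Figure D5:**
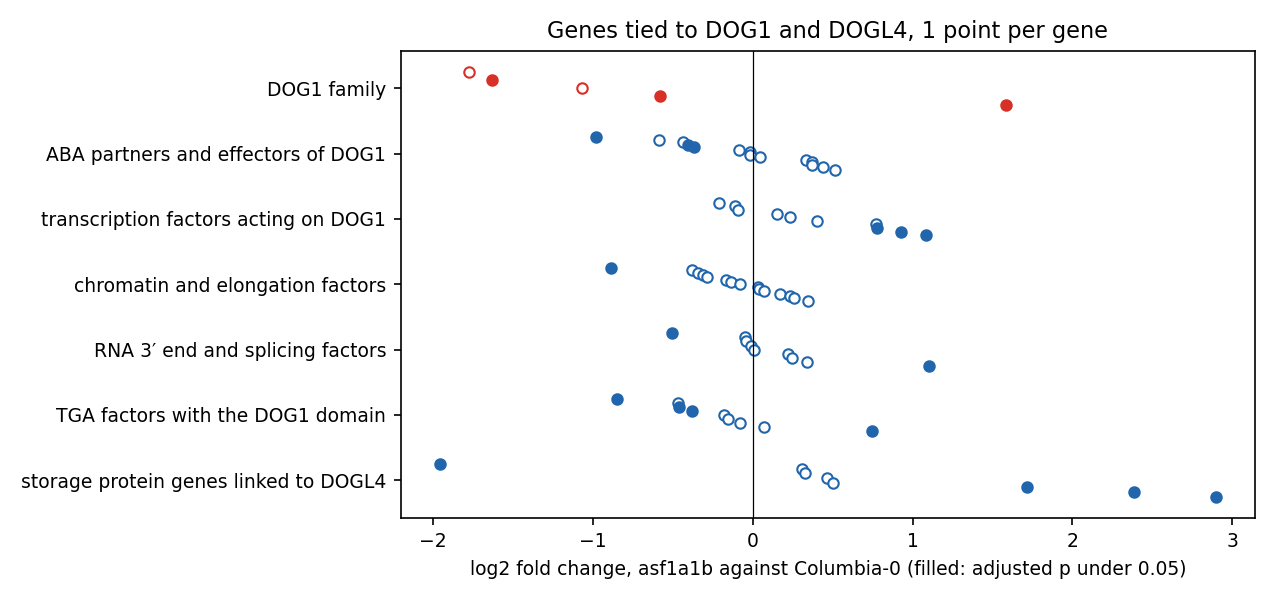
Log2 fold change (asf1a1b against Columbia-0) of the family (red) and of the tested genes of 6 lists tied to DOG1 or DOGL4 (blue), 1 point per gene, filled where the adjusted p was under 0.05. The family spans -1.77 to 1.59 and the tested chromatin and elongation factors -0.89 to 0.34. CLF, KYP, SUVH5 and LDL2, of that list, were below the level tested and are not drawn.

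The genes most like each member were found by the root-mean-square difference between log2(value + 1) profiles over the 6 libraries, each centred on its own mean. This measure takes in the difference between genotypes and that between replicates, and is given as a description. For DOG1 the 5 closest were AT1G05350, AT3G03020, ATHAL3B, AT1G08340 and AT5G60610, with differences of 0.06 to 0.10. The first 3 had Columbia-0 means of 0.912, 0.224 and 0.986 and reached the level tested only through the mutant. Their means rose 5.47, 11.1 and 5.09 times, against 3.18 for DOG1, so the likeness holds only on the log2(value + 1) scale. AT1G05350, annotated as a protein with a Rossmann fold, had 0.912 ± 0.273 rescaled TPM in Columbia-0 and 4.98 ± 0.572 in asf1a1b (SD, n = 3), a far lower level than DOG1. For DOGL2 the closest were AT5G57790, KIWI, GATA16, UPS4 and APE1 (0.05 to 0.07), and for DOGL1 AT4G25890, APR3, AT4G34290, AT4G24275 and AT2G38640 (0.12 to 0.22). AT4G25890 and AT2G38640, with asf1a1b means of 0.215 and 0.259, reached the level tested only through Columbia-0.

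DOGL4 was closest to VAMP712, TET4, AT1G49390, NYE1 and AT4G27530 (0.12 to 0.15). NYE1, a gene of chlorophyll breakdown, had 756, 483 and 384 rescaled TPM in Columbia-0 replicates 1, 2 and 3 and 393, 190 and 252 in asf1a1b, with replicate 1 highest in both genotypes as for DOGL4. DOGL3 had no close match, the nearest being FIB2, AT1G14960, AT5G66080, AT1G72570 and LIL3:2 at 0.61 to 0.71. Among the members themselves, DOGL2 and DOGL4 were nearest (0.54), followed by DOGL1 and DOGL2 (0.64). DOGL2 and DOGL3, the most similar in sequence, were farther apart in profile (1.23), and DOG1 and DOGL3 farthest (1.96).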

How the data were processed

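RNA-seq of fresh seeds was analysed, with 3 Columbia-0 and 3 asf1a1b libraries grouped by title. Per the submitters' processing notes, the tools included fastp 0.23.4 and HISAT2 2.2.1, with TAIR10 as the build; the counter, annotation, strand setting and scaling step are not stated there. The deposited signal values are called TPM in the file names, but their library totals differ (915126 to 1049698), so they are rescaled TPM. The authors deposited a further table of log2 fold changes, p-values and adjusted p-values, whose test is not stated.

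Reads were recovered from value times merged exon length (RefSeq, TAIR10.1) for 32548 genes. Whole numbers, to a tolerance of 0.1, were reached by 99.3% to 99.4% of the values that could be checked. The design allowed for raw counts or normalized values, and the test for the latter was taken. The 14663 genes whose mean reached 1 were fitted on log2(value + 1), a scale that understates changes of low genes, with limma 3.58.1 in R 4.3.3 (empirical Bayes with a mean-variance trend, two-sided, Benjamini-Hochberg over all genes, threshold 0.05). The fit was tested on simulated reads with a fixed spread and no replicate effect, so that test does not cover the replicate differences of these libraries. "Times" are ratios of group means. With 3 against 3 libraries an exact permutation test cannot go below 0.1 and was not used for single genes.

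Deviations from the group mean of same-numbered libraries correlated across genes at 0.427, 0.144 and 0.327 for numbers 1, 2 and 3. Columbia-0 replicate 3 and asf1a1b replicate 2 correlated at 0.381, above the same-number value of either, so number 1 alone matched best with its own (-0.169 at most with other numbers). As all same-number values exceeded 0.1, the numbers were taken to pair the libraries, although the data bear out number 1 alone. The pairing of numbers 2 and 3 rests on the titles, and no label names a shared batch. The replicate block was an alternative fit.

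The members and lists were chosen with earlier results of these data known. Named genes are the members, ASF1A, ASF1B, up to 4 called genes per list with the largest change, 3 neighbours on each side, and the 5 genes nearest in profile; other list genes named for their roles were chosen after their values were seen. Python 3.11.15 was used for the rest. Alternatives were pseudocounts of 0.1 and 5, a minimum mean of 5 or none, median-of-ratios scaling, no trend, limma-voom on recovered reads, the replicate block and leaving out each library. Leaving out replicate 1 of both genotypes was added after seeing the data.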

Additional observations from a re-analysis of the deposited data

How the results depend on the processing

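DOG1 and DOGL1 kept direction and call under all 15 alternatives, and DOGL2, DOGL3 and DOGL4 kept direction. When 1 library was left out, log2 fold changes ran from 1.49 to 1.65 for DOG1, -1.95 to -1.44 for DOGL1, -0.72 to -0.44 for DOGL2, -2.67 to -1.14 for DOGL3 and -1.44 to -0.71 for DOGL4. The call of DOGL2 (-0.58) ended with a minimum mean of 5 and with no filter. With the replicate block DOGL3 (-1.77) and DOGL4 (-1.07) passed, as they did without replicate 1 of both genotypes (-2.06 and -1.18), and DOGL4 also with limma-voom (-1.13). The number of members called was 3, 5 with the replicate block, 5 without replicate 1 of both genotypes and 2 to 4 when 1 library was left out. Over all genes 4494 were called, 2544 with a minimum mean of 5, 7588 without replicate 1 of both genotypes and 1767 to 4999 when 1 library was left out. Of the genes in the 6 lists 17 were called, 30 without replicate 1 of both genotypes and 9 to 22 when 1 library was left out. For 26 other named genes, 336 of 385 alternative fits left direction and call as they were, 40 ended a call, 8 gave one and 1 turned the direction, that of AT4G06835 without replicate 1 of both genotypes (0.0324). The cause of these changes was not tested. Among the members and these 26 genes the replicate block changed the calls of DOGL3, DOGL4, MEE62 and CIPK12; it also changed calls of other list genes. The lowest member value rested on 21 reads.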

Other observations

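The spread between replicates was itself patterned in this family. In both genotypes replicate 1 had the lowest DOGL3 value and the highest DOGL4 value of its group. DOGL3 was 10.8 times higher in Columbia-0 replicate 3 than in replicate 1 and 8.29 times higher in the same pair of asf1a1b libraries. DOGL4 was 1.99 and 1.71 times higher in replicate 1 than in replicate 3. The embryo marker sum was highest in replicate 1 of each genotype, at 83214 and 68916, and the leaf marker sum lowest, at 17.98 and 57.6. CRU3, of the embryo list, was highest in replicate 1 of both genotypes (34099 and 26982), and RBCS1A, of the leaf list, lowest (8.98 and 49.3). In asf1a1b replicates 1, 2 and 3, EM6 (17985, 10136 and 11915) was also highest in replicate 1 and CAB1 (2.55, 19.9 and 12.6) lowest. In Columbia-0 they did not follow the sums, with EM6 at 20972, 23984 and 18819 and CAB1 at 0.505, 0.322 and 0.481. OLEO1, another embryo marker, was lowest in replicate 1 of both genotypes, and RCA, another leaf marker, was highest in Columbia-0 replicate 1. Their part in the spread of the members was not tested. DOG1, by contrast, had an SD of 1.31 on a mean of 11.2 in Columbia-0 and of 4.26 on 35.6 in asf1a1b, the smallest spread relative to the mean of the 5 members in both genotypes.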
